A study of Mus musculus with 6 samples.

Results

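Potassium channel genes were described here by their edits per read (EPR) in cultured mouse neurons. The set held the 94 protein-coding genes whose symbols begin with Kcn, out of 31053 genes listed in each library. They fell into 6 classes: 30 voltage-gated (Kv) subunits, 10 silent Kv subunits, 15 inward rectifiers (Kir), 14 two-pore-domain (K2P) leak channels, 8 members of the calcium-activated group with its sodium-activated and pH-gated relatives, and 17 auxiliary subunits. Antisense genes whose names begin with Kcn, 5 in number, were left out. The data were 6 bulk RNA-seq libraries of primary cortical neurons from wild-type C57BL/6J embryos (E18), 3 libraries with RPL10A-STAMP and 3 with RPL22-STAMP. Each construct carries rAPOBEC1, a deaminase that turns C into U in RNA, joined to RPL10A or to RPL22, which sit in the large subunit of the ribosome, so that mRNAs near labelled ribosomes collect C-to-U edits, and the question is how the EPR of a gene compares between the fusions. All 6 cultures received floxuridine at DIV 3, were infected with AAV at DIV 6, were given Dox at 1 µg per ml for 48 h and were collected at DIV 14. The human synapsin promoter drove the Dox-responsive activator, which was meant to restrict the fusion to neurons. RPS2-STAMP and uninfected cultures were not analysed here, so no background level of C-to-U differences was subtracted. The methods call the replicates biological and another passage calls them technical, and p values measure only the spread between these libraries.

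Potassium channels let K+ leave the cell and so set the resting potential, end the action potential and space out repeated firing. Kv subunits open on depolarization, Kir channels pass current best near rest, K2P channels carry leak, and the calcium-activated group links firing to intracellular calcium, sodium or pH. Silent Kv subunits form no channel of their own and alter Kv2 channels, and auxiliary subunits change the gating and surface traffic of the pores they bind. Pore-forming subunits share a short selectivity filter, a run of amino acids with a glycine, an aromatic residue and a second glycine that strips water from K+.

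The coding sequence around that filter is shown for the 6 genes that differed between the fusions and for *Kcnj6*, the member with the highest mean EPR in the RPL22-STAMP libraries, because it is the region these genes have in common and it displays the cytosines that rAPOBEC1 could act on. Each line holds 45 bases of the coding strand, and capitals mark the 15 bases that encode the filter.
Kcnt2 (chr1:140425263-140425307, plus strand, exon 9): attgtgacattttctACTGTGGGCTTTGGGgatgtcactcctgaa
Kcnh5 (chr12:75087451-75087495, minus strand, exon 7): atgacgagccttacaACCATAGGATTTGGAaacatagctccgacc
Kcnh7 (chr2:62777328-62777372, minus strand, exon 8): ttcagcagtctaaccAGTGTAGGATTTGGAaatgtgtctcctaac
Kcnv1 (chr15:45109274-45109318, minus strand, exon 3): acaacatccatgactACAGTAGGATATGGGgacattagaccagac
Kcnj3 (chr2:55437612-55437656, plus strand, exon 2): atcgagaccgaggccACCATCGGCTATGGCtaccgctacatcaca
Kcnj6 (chr16:94832762-94832806, minus strand, exon 3): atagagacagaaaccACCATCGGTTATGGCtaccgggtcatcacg
Kcnk9, second pore domain (chr15:72512704-72512748, minus strand, exon 2): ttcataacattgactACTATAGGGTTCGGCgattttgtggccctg
Coordinates are in GRCm38, and exons are those of the GENCODE transcript with the longest coding sequence. The inward rectifiers *Kcnj3* and *Kcnj6* shared 36 of the 45 bases and 14 of the 15 filter bases, and the ether-a-go-go relatives *Kcnh5* and *Kcnh7* shared 29 and 12. The windows held 8 to 16 cytosines each. The deposited values are 1 ratio per gene, so where along these transcripts the edits lay was not measured here.

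An EPR above 0 in all 6 libraries was found for 45 of the 94 members (47.9%), compared with 36.1% of the 21974 protein-coding genes listed. Another 21 members were above 0 in 1 to 5 libraries, and 28 were listed at 0 throughout. A value of 0 can mean no edits or no reads, and the number of reads behind each ratio is unknown. The share above 0 in all libraries was highest in the calcium-activated group (6 of 8) and among Kv subunits (19 of 30), and lowest among K2P channels (3 of 14). The silent Kv subunits (4 of 10), the Kir channels (6 of 15) and the auxiliary subunits (7 of 17) lay between. These counts describe the classes and carry no test.

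**Figure D1:**
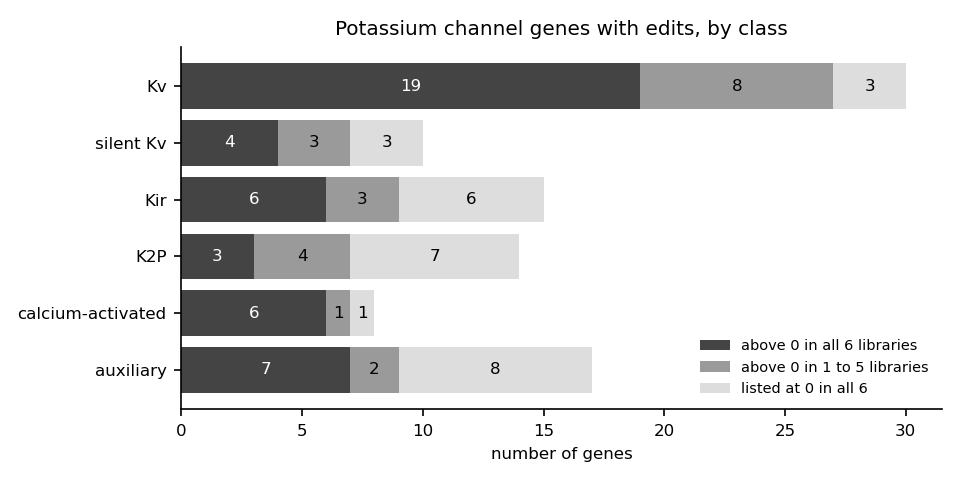
Number of potassium channel genes (x axis) in each class (y axis) with an EPR above 0 in all 6 libraries (dark), in 1 to 5 libraries (grey) or in none (light). The dark segment reaches 19 of 30 Kv genes and 3 of 14 K2P genes.

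The genes listed at 0 throughout included channels known from other tissues. All 5 KCNE subunits, which pair with Kv7 channels in heart and epithelia, were among them, as was *Kcnq1*, the cardiac Kv7 subunit. The others were the Kv1 genes *Kcna7* and *Kcna10*, the silent subunits *Kcng1*, *Kcng4* and *Kcnv2*, the Kir genes *Kcnj1*, *Kcnj5*, *Kcnj8*, *Kcnj13*, *Kcnj14* and *Kcnj15*, 7 K2P genes (*Kcnk5*, *Kcnk6*, *Kcnk7*, *Kcnk12*, *Kcnk15*, *Kcnk16* and *Kcnk18*), *Kcnn4*, the BK subunits *Kcnmb1* and *Kcnmb3*, and *Kcnrg*. Single high values occurred among genes with edits in few libraries, such as 0.0909 for *Kcnk13* in RPL22-STAMP replicate 3 alone. No member was at 0 throughout one fusion and above 0 in all 3 libraries of the other, and no member exceeded 1 edit per read.

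Facts of the libraries as a whole bear on how these values are read. Between 9892 and 11195 genes were above 0 per library, of which 53 to 59 were potassium channel genes. The median EPR of the 8046 genes above 0 in all libraries ran from 0.012 to 0.0161 with RPL10A-STAMP and from 0.00907 to 0.0129 with RPL22-STAMP, and the median over the 45 members was 1.00 to 1.30 times that of its own library. For the test each library was scaled to a common median, and differences are given on the log2(EPR + 0.01) scale as RPL10A-STAMP minus RPL22-STAMP, which understates differences of genes with low EPR. Without scaling the median difference over all genes moved from -0.01 to 0.18, and the share of calls that were higher with RPL10A-STAMP moved from 59.6% to 88.1%. All 9 neuron markers examined were above 0 in all libraries, with a summed EPR of 0.192 to 0.229 and 0.178 to 0.211, and 2 of them were higher with RPL22-STAMP (*Syn1* -0.82 and *Gad2* -0.54; limma, adjusted p of 0.00814 and 0.0446). Of 7 astrocyte markers 5 were above 0 in all libraries, with sums of 0.244 to 0.297 and 0.13 to 0.285. Only 1 of 7 oligodendrocyte lineage markers was (*Mog*, *Mag* and *Cspg4* at 0; sums of 0.00358 to 0.0886 and 0.0352 to 0.0762) and none of 6 microglial markers (*Csf1r*, *P2ry12* and *Tmem119* at 0; sums of 0 to 0.0143 and 0 to 0.0714), and all 5 vascular markers were at 0. The sums add ratios over lists of unequal size, and a high ratio of any gene weighs on them, so they do not rank cell types by editing. In a bulk culture, fewer edited cells of a type and fewer edits per cell cannot be told apart.

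Of the 45 members tested, 6 differed between the fusions (13.3%), against 14.3% of all 8046 genes tested (limma, Benjamini-Hochberg adjusted p under 0.05). The share was close to that of all genes and is not a result about potassium channels. Higher EPR with RPL10A-STAMP was called for 5 of the 45 members, *Kcnt2*, *Kcnh5*, *Kcnv1*, *Kcnj3* and *Kcnh7*, against 685 of the 8046 genes (8.51%). Higher EPR with RPL22-STAMP was called for 1 of the 45, *Kcnk9*, against 464 of the 8046 genes (5.77%). After scaling, the 3 libraries of one fusion lay wholly above those of the other for 13 members (28.9%), against 37.1% of all genes, with both directions together. The split by direction was not counted over all genes, so none is given for these 13 members. The median difference over the 45 members was -0.13, and over all genes -0.01. Of the 39 members that did not pass, differences ran from -0.75 to 0.52 and adjusted p from 0.0669 to 0.97, with 7 below 0.05 before adjustment.

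**Figure D2:**
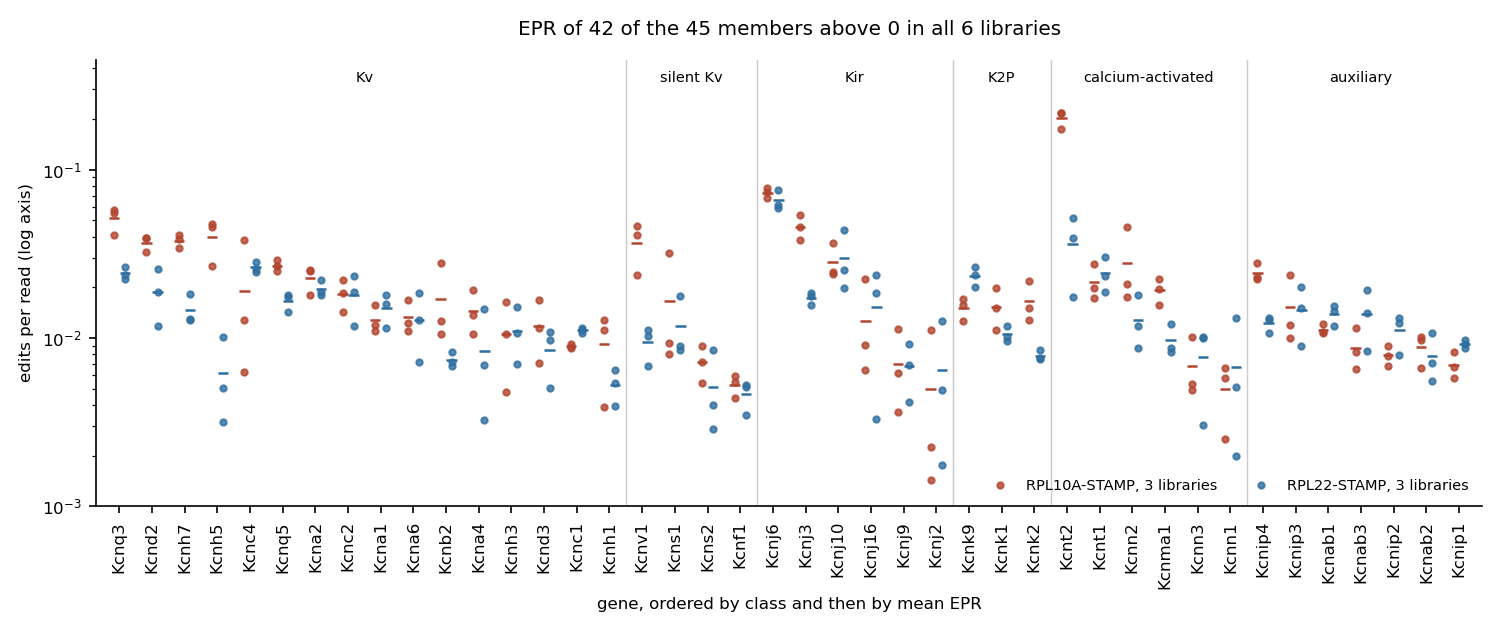
EPR on a log axis (y) of 42 of the 45 members above 0 in all 6 libraries (x), ordered by class and by mean EPR. Points are single libraries before scaling and bars are the means of 3; *Kcnt2* with RPL10A-STAMP lies at 0.174 to 0.217, above every other member, and *Kcnj6* lies at 0.0594 to 0.0775 with both fusions.

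On the log2(EPR + 0.01) scale the widest difference was that of *Kcnt2* (ENSMUSG00000052726; chromosome 1, 140246158 to 140612067), which encodes Slick, a K+ channel opened by intracellular sodium. Its EPR was 0.174, 0.217 and 0.217 in the RPL10A-STAMP libraries and 0.0514, 0.0392 and 0.0175 in the RPL22-STAMP libraries. All RPL10A-STAMP libraries were above all RPL22-STAMP libraries, and *Kcnt2* was the highest of the 45 members in each RPL10A-STAMP library. The means were 0.203 ± 0.0248 and 0.036 ± 0.0172 (SD, 3 libraries each), and the difference was 1.94 ± 0.34 (SE; limma, adjusted p = 0.0143). Without RPL10A-STAMP replicate 2 or 3 the adjusted p in limma was 0.0502 or 0.0543, with differences of 1.92 and 1.96. Its relative *Kcnt1*, which encodes Slack, ranged from 0.0173 to 0.0304 over the 6 libraries and did not pass (-0.39 ± 0.18; limma, adjusted p = 0.195). Without the added 0.01 the difference of *Kcnt2* was 2.23 and that of *Kcnh5* was 2.43, so which was wider rested on this constant.

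*Kcnh5* (ENSMUSG00000034402; chromosome 12, 74897220 to 75177332) encodes an ether-a-go-go Kv subunit, and its filter sequence is shown above. Its EPR was 0.0266, 0.0474 and 0.0456 with RPL10A-STAMP, against 0.00508, 0.00318 and 0.0102 with RPL22-STAMP. The groups did not overlap, and the RPL10A-STAMP libraries were the higher ones. The difference was 1.38 ± 0.21 (limma, adjusted p = 0.00845). It was the 1 potassium channel gene that passed in all 16 alternative limma fits, including each library left out in turn. Its paralog *Kcnh1*, named after its values were seen, ranged from 0.00389 to 0.0127 and did not pass (0.14 ± 0.16; limma, adjusted p = 0.608).

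*Kcnh7* (ENSMUSG00000059742; chromosome 2, 62693414 to 63184287) belongs to the Erg group, whose currents oppose repeated firing. Its EPR was 0.0341, 0.0387 and 0.0406 with RPL10A-STAMP, against 0.0128, 0.0183 and 0.0129 with RPL22-STAMP, again without overlap. The difference was 0.69 ± 0.13 (limma, adjusted p = 0.0176). The call was lost in 8 of 16 alternative limma fits, the most of the 6 called genes. Adjusted p in limma was 0.0577, 0.0593 and 0.0639 without RPL10A-STAMP replicates 1, 2 and 3, 0.0519 without RPL22-STAMP replicate 3, and 0.197 with a difference of 0.30 once the trend with GC content was removed. Of the other tested genes of the EAG, ERG and ELK group, *Kcnh3* gave -0.25 ± 0.19 (limma, adjusted p = 0.398), and 4 of the 8 genes (*Kcnh2*, *Kcnh4*, *Kcnh6* and *Kcnh8*) were at 0 in at least 1 library.

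Kv7 subunits, *Kcnq3* and *Kcnq5* among them, carry the M-current, a slow K+ current that acetylcholine shuts off. *Kcnq3* (ENSMUSG00000056258) had an EPR of 0.0409, 0.0576 and 0.0554 with RPL10A-STAMP, against 0.0238, 0.0225 and 0.0264 with RPL22-STAMP. The libraries did not overlap, but the difference did not pass (0.52 ± 0.16; limma, adjusted p = 0.0669), and it passed only when libraries were not scaled (0.83; limma, adjusted p = 0.0332). *Kcnq5* lay at 0.0249 to 0.029 and 0.0142 to 0.0181, and after scaling its libraries overlapped (0.20 ± 0.18; limma, adjusted p = 0.478).

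The Kv4 subunits carry the fast A-type current of dendrites together with KChIP and DPP partners. *Kcnd2* (ENSMUSG00000060882) had an EPR of 0.0322, 0.0394 and 0.039 with RPL10A-STAMP, against 0.0118, 0.0255 and 0.0188 with RPL22-STAMP. The libraries did not overlap, and the difference did not pass (0.47 ± 0.15; limma, adjusted p = 0.0829). *Kcnd3* gave 0.02 ± 0.19 (limma, adjusted p = 0.966), with an EPR of 0.00507 to 0.0167. All 4 KChIP genes, calcium sensors that bind Kv4, were above 0 in every library and none passed. *Kcnip4* was 0.0229, 0.0225 and 0.0278 against 0.0128, 0.0131 and 0.0107, without overlap (0.38 ± 0.15; limma, adjusted p = 0.137). *Kcnip1*, *Kcnip2* and *Kcnip3* gave differences of -0.35, -0.42 and -0.20, with adjusted p in limma of 0.173, 0.158 and 0.534.

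The Kv1 subunits sit at axon initial segments and terminals and bind Kvβ subunits, and none of the 4 tested passed. *Kcna2* was the highest at 0.0179 to 0.0254, *Kcna1* lay at 0.011 to 0.018, *Kcna4* at 0.00324 to 0.0192 and *Kcna6*, of whose exon bases an antisense gene covers 39.6%, at 0.00721 to 0.0186. Their differences were -0.13, -0.34, 0.22 and -0.16, with adjusted p in limma from 0.236 to 0.664. The Kvβ genes *Kcnab1*, *Kcnab2* and *Kcnab3* lay at 0.0107 to 0.0154, 0.00555 to 0.0107 and 0.00658 to 0.0193. Their differences were -0.38, -0.09 and -0.53 (limma, adjusted p of 0.186, 0.708 and 0.216).

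Kv3 channels repolarize fast-spiking neurons. The differences of *Kcnc1*, *Kcnc2* and *Kcnc4* were -0.35, -0.22 and -0.75 and did not pass (limma, adjusted p of 0.133, 0.615 and 0.189). *Kcnc1* varied little within a fusion, at 0.00873 to 0.00924 with RPL10A-STAMP and 0.0107 to 0.0114 with RPL22-STAMP. *Kcnc4* had the lowest difference of the 45 members and a wide spread, with 0.0063, 0.0382 and 0.0127 against 0.0281, 0.0248 and 0.0258. Its difference rested on which RPL10A-STAMP libraries entered: without replicate 2, the high one, the difference was -1.13 (limma, adjusted p = 0.0381), and with all 6 libraries the adjusted p in limma was 0.189.

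Kv2 channels carry the delayed rectifier of soma and proximal dendrites, and silent subunits join them. *Kcnv1* (ENSMUSG00000022342; chromosome 15, 45106284 to 45114920), a silent subunit, had an EPR of 0.0235, 0.0407 and 0.0464 with RPL10A-STAMP, against 0.0103, 0.00679 and 0.0112 with RPL22-STAMP. The libraries did not overlap, and the difference was 0.98 ± 0.20 (limma, adjusted p = 0.0206). The adjusted p in limma was 0.072 and 0.0782 without RPL10A-STAMP replicates 2 and 3, and 0.0501 without RPL22-STAMP replicate 3. The call was lost in 7 of 16 alternative limma fits in all, with 0.0855 and a difference of 0.64 once the GC trend was removed and 0.0625 without a filter on low values. The other silent subunits tested gave differences near 0 (*Kcnf1* -0.06, *Kcns1* -0.02 and *Kcns2* 0.03; limma, adjusted p of 0.718, 0.97 and 0.939). The Kv2 gene *Kcnb2* gave 0.40 ± 0.29 (limma, adjusted p = 0.383).

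**Figure D3:**
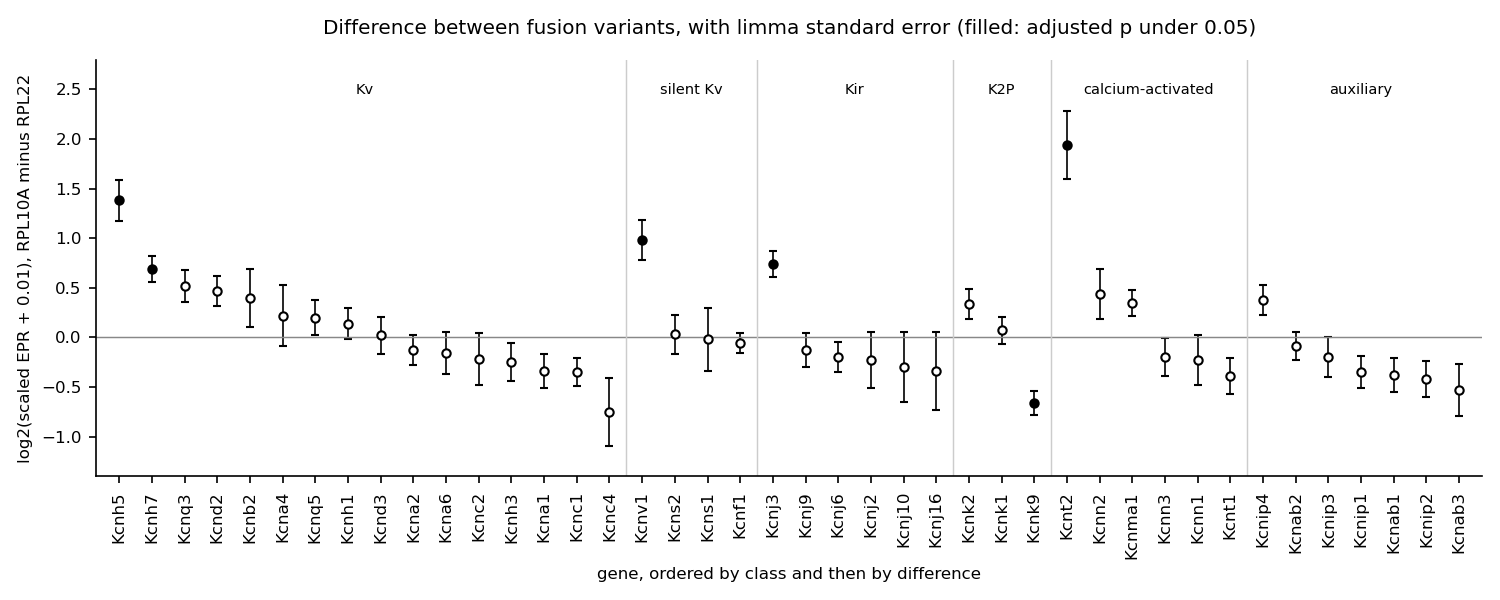
Difference between the fusions on the log2(scaled EPR + 0.01) scale, RPL10A-STAMP minus RPL22-STAMP (y axis), for 42 of the 45 members by class (x axis); bars are limma standard errors and filled points have an adjusted p under 0.05. *Kcnt2* (1.94) and *Kcnh5* (1.38) lie farthest above 0, and *Kcnk9* (-0.66) is the filled point below 0.

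G protein-gated Kir channels (GIRK) open when GABA-B and other receptors release G protein βγ subunits. *Kcnj3* (ENSMUSG00000026824; chromosome 2, 55435970 to 55598145), which encodes GIRK1, had an EPR of 0.0381, 0.0457 and 0.0538 with RPL10A-STAMP, against 0.0156, 0.0178 and 0.0185 with RPL22-STAMP. The libraries did not overlap, and the difference was 0.74 ± 0.13 (limma, adjusted p = 0.0145). The adjusted p in limma was 0.0502 and 0.0639 without RPL10A-STAMP replicates 2 and 3, and 0.0583 with the GC trend removed. Exons of an antisense gene cover 31.1% of the *Kcnj3* exon bases. The library kit keeps strand, but whether the counting used it is not stated, so it is uncertain whether reads of the 2 genes were told apart. *Kcnj6* (ENSMUSG00000043301; chromosome 16, 94748636 to 94997701), which encodes GIRK2 and shares most filter bases with *Kcnj3*, had 0.0677, 0.0775 and 0.0738 against 0.0594, 0.0753 and 0.0618. Its libraries overlapped (-0.20 ± 0.15; limma, adjusted p = 0.406), and it was the highest of the tested members in each RPL22-STAMP library. *Kcnj9*, which encodes GIRK3, lay far lower at 0.00365 to 0.0113.

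*Kcnj10* encodes the glial Kir channel that clears K+ from around neurons, and *Kcnj16* encodes its partner. *Kcnj10* had an EPR of 0.0364, 0.0248 and 0.024 with RPL10A-STAMP, against 0.0437, 0.0198 and 0.0254 with RPL22-STAMP. The libraries overlapped (-0.30 ± 0.35; limma, adjusted p = 0.598), and replicate 1 was the highest of each fusion. The 7 astrocyte markers spread on both sides of it, from 0 to 0.00927 for *Aldh1l1* to 0.0267 to 0.107 for *Gja1*. The 9 neuron markers spread widely too, from 0.00308 to 0.00707 for *Tubb3* to 0.036 to 0.0613 for *Syt1*, with *Snap25* (0.021 to 0.0314) between. The part of glial cells in these values was not tested. *Kcnj16* ranged from 0.00329 to 0.0238 and *Kcnj2* from 0.00143 to 0.0126, and neither passed (limma, adjusted p of 0.599 and 0.605). *Kcnj11*, the pore of ATP-sensitive channels, was at 0 in RPL22-STAMP replicate 1 and at 0.0024 to 0.0141 in the others.

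Of the 3 K2P genes tested, *Kcnk9* (ENSMUSG00000036760; chromosome 15, 72501089 to 72546340), an acid-sensitive leak channel, differed. Its EPR was 0.0126, 0.017 and 0.0156 with RPL10A-STAMP, against 0.0201, 0.0265 and 0.0235 with RPL22-STAMP. The RPL22-STAMP libraries were the higher ones without overlap, and the difference was -0.66 ± 0.12 (limma, adjusted p = 0.0156). The adjusted p in limma was 0.0538 and 0.0693 without RPL10A-STAMP replicates 2 and 3, and 0.185 with a difference of -0.41 without scaling. *Kcnk2*, a mechanosensitive K2P gene, was 0.0127, 0.0151 and 0.0219 against 0.0085, 0.00763 and 0.00746 (0.34 ± 0.15; limma, adjusted p = 0.174), and *Kcnk1* lay at 0.0111 to 0.0197 and 0.00963 to 0.0118 (0.07 ± 0.14; limma, adjusted p = 0.798). *Kcnk2* did not overlap between the fusions, and *Kcnk1* overlapped.

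In the calcium-activated group, BK channels speed repolarization and SK channels produce the slower hyperpolarization that follows spikes. *Kcnma1*, the BK pore, had an EPR of 0.0156, 0.0224 and 0.0196 with RPL10A-STAMP, against 0.00824, 0.0121 and 0.00868 with RPL22-STAMP. The libraries did not overlap, and the difference did not pass (0.35 ± 0.13; limma, adjusted p = 0.114). The neuronal BK subunit *Kcnmb4* was above 0 in only 3 libraries, and antisense genes cover 31.5% of its exon bases. The SK genes *Kcnn1*, *Kcnn2* and *Kcnn3* lay at 0.002 to 0.0131, 0.00867 to 0.0453 and 0.00303 to 0.0102, with differences of -0.23, 0.44 and -0.20 (limma, adjusted p of 0.587, 0.284 and 0.506). *Kcnn2* reached its top value in RPL10A-STAMP replicate 3 only, and the other 5 libraries lay at or below 0.0208.

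By class, the median EPR before scaling of the members above 0 in all libraries was 0.0206 ± 0.0015 for Kv, 0.0209 ± 0.0026 for Kir, 0.0195 ± 0.00338 for the calcium-activated group, 0.0151 ± 0.00223 for K2P, 0.0118 ± 0.00688 for silent Kv and 0.0104 ± 0.000835 for auxiliary genes with RPL10A-STAMP (mean ± SD of 3 library medians). With RPL22-STAMP the same medians were 0.0144 ± 0.00149, 0.0162 ± 0.00314, 0.0122 ± 0.00262, 0.0106 ± 0.00114, 0.00755 ± 0.00132 and 0.0115 ± 0.00206. Kv, Kir and the calcium-activated group lay within about 1 SD of each other with RPL10A-STAMP, but over the members edited in each library the Kir median was 0.0128 and those of the others were 0.0188. Before scaling, when RPL10A-STAMP libraries mostly had the higher medians over all genes, the auxiliary median was the 1 class median that was not lower with RPL22-STAMP, and it differed between the fusions by less than the SD of the RPL22-STAMP libraries. The K2P median rested on 3 genes, and it was the value of *Kcnk9* in each RPL10A-STAMP library and of *Kcnk1* in each RPL22-STAMP library. *Kcnk9* itself was higher with RPL22-STAMP. The silent Kv median rested on 4 genes (it was 0.0185 over the members edited in each library), and RPL10A-STAMP replicate 2 (0.0196) lay well above replicates 1 and 3 (0.00668 and 0.00912). Of the 7 auxiliary genes 6 had a difference below 0 and none passed, with a median of -0.35 against -0.01 for all genes. Without scaling 4 of the 7 were below 0, and with the GC trend removed 4 were below 0 and 3 above, with a median of -0.12. Of the 6 Kir genes, the 5 other than *Kcnj3* also lay below 0 (3 of 6 without scaling), and Kv genes split into 10 above and 9 below (14 and 5 without scaling).

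Subunits that assemble with each other, close paralogs, and the more distant K2P genes *Kcnk2* and *Kcnk9* were also compared as EPR ratios within a library, which scaling cannot change. The 7 pairs were picked after their values had been seen, so no test is given. *Kcnt2* over *Kcnt1* was 8.83, 12.5 and 7.97 with RPL10A-STAMP, against 2.19, 1.29 and 0.934 with RPL22-STAMP. *Kcnj3* over *Kcnj6* was 0.563, 0.59 and 0.729 against 0.262, 0.237 and 0.3. The EPR of *Kcnj3* stayed below that of *Kcnj6* in every library, and the ratio was higher with RPL10A-STAMP. These are ratios of edits per read and do not measure the amounts of the subunits. *Kcnh5* over *Kcnh1* was 6.83, 3.72 and 4.12 against 1.28, 0.49 and 1.89. *Kcnk2* over *Kcnk9* was 1.01, 0.888 and 1.4 against 0.424, 0.288 and 0.318. *Kcnd2* over *Kcnd3* (2.33 to 4.55 against 1.21 to 3.72) and *Kcnj9* over *Kcnj6* (0.0471 to 0.153 against 0.0705 to 0.122) overlapped between the fusions.

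**Figure D4:**
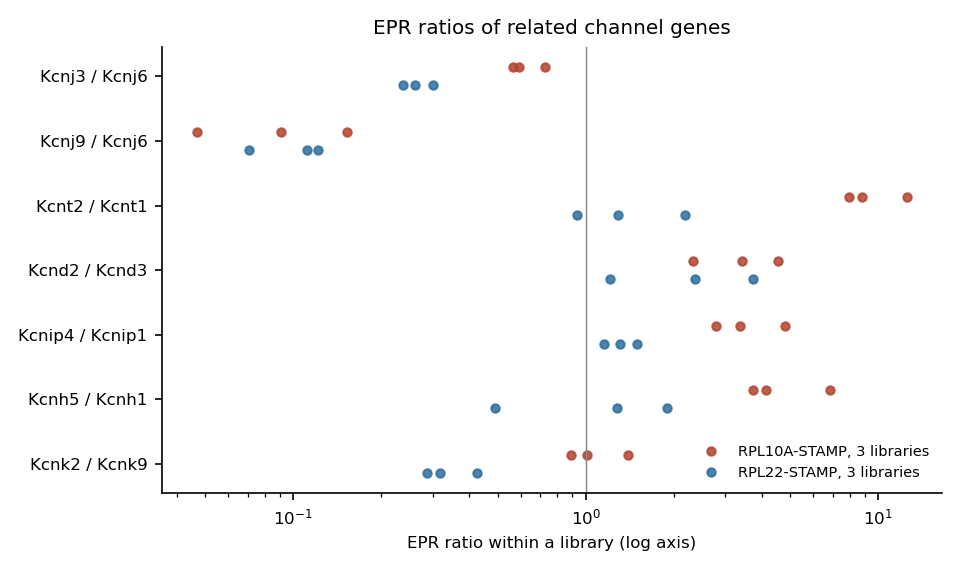
Ratio of the EPR of 2 related genes within each library on a log axis (x) for 7 pairs (y), with RPL10A-STAMP in red and RPL22-STAMP in blue and a line at a ratio of 1. *Kcnt2* over *Kcnt1* lies at 7.97 to 12.5 in red and 0.934 to 2.19 in blue, while *Kcnj9* over *Kcnj6* overlaps.

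Replicate libraries ordered the members alike to different degrees. Across the 45 members, Spearman's rho between replicates of one fusion was 0.764, 0.811 and 0.792 for RPL10A-STAMP and 0.737, 0.666 and 0.624 for RPL22-STAMP, and it was 0.459 to 0.629 between libraries of different fusions. These are descriptions across genes, which are not independent replicates. Among all genes above 0 in every library, the mean EPR of the members had a median percentile of 52.4 with quartiles of 33.4 and 77.5. Only *Kcnt2*, *Kcnj6* and *Kcnq3* lay above the 90th percentile, and *Kcnf1* at 5.02 was the lowest. EPR is not corrected for transcript length or cytosine content, so these percentiles and the class medians do not rank translation. Over the members, Spearman's rho of mean EPR with GC content was -0.416 for RPL10A-STAMP and -0.108 for RPL22-STAMP.

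The difference between fusions moved with the GC content of the transcript. Over the 45 members Pearson's r was -0.497 and Spearman's rho -0.493, and over 8039 genes they were -0.451 and -0.467. All points share the same 6 libraries. Without *Kcnt2* the values over 44 members were -0.477 and -0.464. The 15 members with the lowest GC content (39.3% to 47.7%) had a median difference of 0.38 and held 4 of the 6 calls, the middle 15 (47.9% to 54.2%) had a median of -0.06 and 2 calls, and the 15 with the highest (54.3% to 61.2%) had a median of -0.23 and 0 calls. GC content was 42.7% for *Kcnt2*, 39.6% for *Kcnh7*, 41.0% for *Kcnv1*, 43.9% for *Kcnj3*, 47.9% for *Kcnk9* and 49.6% for *Kcnh5*. With the GC trend removed from each library *Kcnt2*, *Kcnh5* and *Kcnk9* passed in limma, and 28 of the 45 differences were above 0 in place of 19. The part of GC content in these differences was not tested beyond that fit. Log transcript length gave r = 0.128 over the members.

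**Figure D5:**
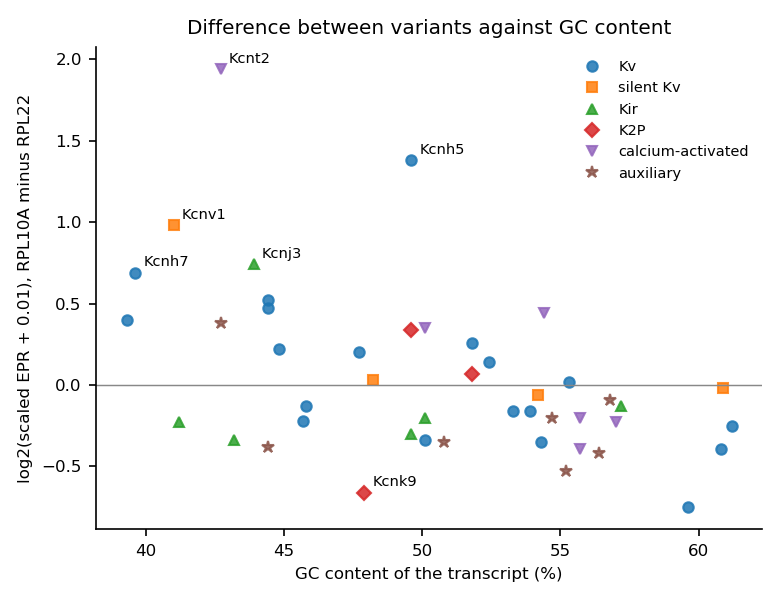
Difference between the fusions (y axis, log2(scaled EPR + 0.01), RPL10A-STAMP minus RPL22-STAMP) against transcript GC content in percent (x axis) for the 45 members, with classes as symbols. Points fall from upper left to lower right (Spearman's rho of -0.493), and *Kcnk9* lies below 0 at 47.9% GC.

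Proteins that bind or modulate these channels were read from a list of 35 genes, of which 28 were above 0 in all libraries. Of the 28, 3 were higher with RPL10A-STAMP and 4 with RPL22-STAMP (limma, adjusted p under 0.05), against 8.51% and 5.77% of all genes, and the median difference was 0.00 against -0.01 for all genes. *Crbn*, whose product binds the BK pore, had an EPR of 0.0356, 0.0321 and 0.0372 against 0.00707, 0.00908 and 0.0106 (1.01; limma, adjusted p = 0.00811). *Lgi1*, a secreted protein of Kv1 complexes, had 0.0197, 0.0339 and 0.0387 against 0.00802, 0.00751 and 0.01 (0.86; limma, adjusted p = 0.0175). The RPL22-STAMP libraries were higher for the calmodulin genes *Calm3* (-0.74) and *Calm2* (-0.59), whose protein is the calcium sensor of SK and Kv7 channels, with adjusted p in limma of 0.0156 and 0.0375. They were also higher for *Dpp6*, a Kv4 partner (-0.59; limma, adjusted p = 0.0332), and *Pip5k1c*, which makes the lipid PIP2 that Kir and Kv7 channels need (-0.52; limma, adjusted p = 0.04). *Dpp10*, the relative of *Dpp6*, gave 0.36 (limma, adjusted p = 0.115).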

How the data were processed

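Single-end reads of poly(A)-selected libraries were trimmed (cutadapt) and aligned (STAR, mm10). SAILOR called the edits and featureCounts counted the reads, and the authors deposited the ratio of edits to reads (EPR) of each gene in each library. The kit was stranded. The annotation and the strand setting of the counting are not given in the sources used here. The methods state 1 total of sequenced reads for every sample, and the reads behind each gene's ratio are unknown. Of 31053 gene identifiers, 31011 were named through GENCODE mouse release 21. Members are protein-coding genes with symbols in Kcn. Members and lists were chosen with earlier results of these data known.

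The EPR of each library was scaled so that the median over the 8046 genes above 0 in all 6 libraries was the same, the geometric mean of the medians before scaling. log2(EPR + 0.01) was fitted with limma 3.58.1 (R 4.3.3) with a variance trend and no covariate, and p values were adjusted over these genes (Benjamini-Hochberg, threshold 0.05). The script was tested on simulated data. Groups came from sample titles. Transcript GC content and length are those of the transcript with the longest coding sequence. Tables and plots used Python 3.11.15, pandas 2.3.3, scipy 1.17.1 and matplotlib 3.10.9.

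Genes were named if called, among the top 2 of their class in mean EPR, or in a list of 32 neuronal channels, and called partners were named too; some genes that this rule covers are not reported here and are left out of the plots by gene. *Kcna6*, *Kcnab3*, *Kcnb2*, *Kcnc2*, *Kcnc4*, *Kcnf1*, *Kcnh1*, *Kcnh3*, *Kcnj2*, *Kcnj9*, *Kcnj16*, *Kcnk13*, *Dpp10* and the genes listed at 0 were named after their values were seen. Alternatives covered filter, pseudocount, scaling, replicate block, GC content, length, the t-test that the methods describe for BDNF treatment, and each library left out.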

Additional observations from a re-analysis of the deposited data

How the results depend on the processing

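Of 45 members, 6 were called. The count was 5 to 6 with genes above 0 in at least 3 libraries, no filter, a pseudocount of 0.001 or none, no scaling, quantile normalization or the length trend removed. It was 3 with the GC content trend removed, 0 with the methods' t-test on unscaled EPR after Benjamini-Hochberg adjustment (14 members below 0.05 before it), and 1 to 6 with 1 library left out. The methods describe that t-test for BDNF against no treatment, and its use on these fusions was a choice made here. The low counts were 1 without RPL10A-STAMP replicate 3 (*Kcnh5*) and 2 without RPL10A-STAMP replicate 2 (*Kcnh5* and *Kcnc4*). No named difference changed sign in any alternative run for the 6 called genes, *Kcnq3*, *Kcnd2* and *Kcnc4*. The cause of the lost calls was not tested, and leaving a library out changes both the number and the set of libraries.

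With the replicate number as a block, 3 members were called (*Kcnh5*, *Kcnj3* and *Kcnt2*), and 1 (*Kcnh5*) with the GC trend removed as well. After scaling, deviations of same-numbered libraries correlated at only 0.0437, 0.0464 and -0.00546 over 8046 genes. Scaling removes shifts common to a whole library, so these values do not settle whether the numbers pair the libraries.

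Over all genes the calls were 1149, against 754 for genes above 0 in at least 3 libraries, 569 without a filter, 603 with the block, 663 with the GC trend removed, 227 with both, 0 by the methods' t-test (1996 below 0.05 before adjustment) and 369 to 873 with 1 library left out.

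When class medians were taken over the members edited in each library, they became 0.0188 for Kv and 0.0128 for Kir with RPL10A-STAMP and 0.0123 for Kir with RPL22-STAMP. The silent Kv median with RPL10A-STAMP moved from 0.0118 to 0.0185, within its wide SD of 0.00688, and the others moved by less than 1 SD. Without read counts, a low EPR from few reads and one from many cannot be told apart.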
